A study of Mus musculus with 20 samples.

Results

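Triglyceride synthesis and glycerol supply were examined in adipocytes of mouse epididymal adipose tissue (epiAT) through 10 genes, chosen by name and matched by Ensembl identifier among the 46078 genes of the count table. They are Gpd1, Pck1, Aqp7 and Gk, which concern glycerol and glycerol 3-phosphate, and Gpam, Agpat2, Lpin1, Dgat1, Dgat2 and Mogat1, which attach fatty acids to the glycerol backbone. All 10 passed the filter on low counts. The data are translating ribosome affinity purification (TRAP–seq) libraries from 20 male AdipoERCre x NuTRAP mice in 8 groups. In every group, including the chow controls, tamoxifen was given by gavage 2 times at 4 to 5 weeks of age and washed out for 2 weeks. The inducible Cre is driven by the Adipoq promoter and turns on GFP-tagged ribosomes, which were pulled from a lysate of the frozen depot, so the measurement is ribosome-bound mRNA and depends on how well other RNA is washed away.

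In the short arm, mice received HFD for 12 weeks (H) or chow (C), and both were 18 weeks old at dissection. HC mice were fed HFD for 12 weeks and chow for the 8 weeks after it, and were compared at 26 weeks of age with chow-fed CC_s mice. These groups held 3 mice each. In the long arm, HH mice had 25 weeks of HFD and were examined at 31 weeks of age beside chow-fed CC_l mice. HHC mice followed 25 weeks of HFD with 8 weeks of chow and reached 39 weeks of age, as did the chow-fed CCC mice. The long-arm groups held 2 mice each. Library names of the arms carry different prefixes (S086 and S087), whose meaning is not stated, so arm, age and whatever the prefix marks cannot be told apart, and each HFD or weight loss (WL) group was compared with the chow group of its own arm and age.

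Adipocytes store fatty acids as triglyceride, which is built on glycerol 3-phosphate. GPD1 makes glycerol 3-phosphate from a glycolytic intermediate, and PCK1 is the rate-limiting enzyme of glyceroneogenesis, which makes it from pyruvate and related precursors. AQP7 is a channel through which glycerol crosses the adipocyte membrane, and glycerol kinase (encoded by Gk) phosphorylates free glycerol, an activity that is classically low in white fat. GPAM, AGPAT2 and LPIN1 then convert glycerol 3-phosphate stepwise to diacylglycerol, and DGAT1 or DGAT2 adds the last fatty acid. MOGAT1 makes diacylglycerol from monoacylglycerol instead.

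The genes lie on different chromosomes of mm10 (GENCODE vM21), apart from Dgat1 with Gpd1 on chromosome 15 and Agpat2 with Pck1 on chromosome 2. Exons of Agpat2, Mogat1, Gpd1 and Gk overlap exons of a gene on the opposite strand, by 64, 200, 384 and 84 bases at most. Because the strand setting of the counting is not given in the sources used here, reads in those stretches may belong to either gene.

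RefSeq promoter windows (GRCm38.p6) were found for 7 of the 10 genes. The 250 bases upstream of the start site are shown for Aqp7 and Mogat1, the members with calls below, and for Pck1, whose level varied most between mice. Capitals mark AGGTCA (the nuclear receptor hexamer) or TGACG (the core of the cAMP response element) on either strand, and each sequence runs 5′ to 3′ on the strand of the gene.
Aqp7, chr4:41048137-41048386, minus strand: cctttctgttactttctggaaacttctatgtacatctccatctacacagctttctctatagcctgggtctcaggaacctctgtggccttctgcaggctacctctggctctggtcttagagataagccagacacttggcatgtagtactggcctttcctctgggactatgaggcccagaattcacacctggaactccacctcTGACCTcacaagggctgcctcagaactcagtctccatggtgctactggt
Mogat1, chr1:78510810-78511059, plus strand: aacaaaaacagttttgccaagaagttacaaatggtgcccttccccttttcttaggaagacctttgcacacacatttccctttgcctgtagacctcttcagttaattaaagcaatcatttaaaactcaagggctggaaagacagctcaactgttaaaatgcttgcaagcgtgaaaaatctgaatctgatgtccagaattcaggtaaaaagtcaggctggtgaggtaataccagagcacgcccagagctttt
Pck1, chr2:173152823-173153072, plus strand: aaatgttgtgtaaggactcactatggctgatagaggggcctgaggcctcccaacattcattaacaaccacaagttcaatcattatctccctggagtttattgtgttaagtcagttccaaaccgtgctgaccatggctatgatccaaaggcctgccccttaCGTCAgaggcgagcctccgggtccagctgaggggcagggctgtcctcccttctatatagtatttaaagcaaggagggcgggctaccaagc

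In the Aqp7 window the hexamer stands on the opposite strand at -49 to -44 from the start site, and in the Pck1 window the cAMP response element core stands on the opposite strand at -90 to -86. AGGTCA was found in 14.0% and TGACG in 17.8% of 32851 RefSeq windows of the same length. The Mogat1 window held neither of these, nor TATAAA (the TATA box, in 12.4% of all windows), CACGTG (an E-box, in 6.02%) or the CCAAT box (in 33.8%). Among the 7 members with a window, AGGTCA was in Lpin1 and Aqp7, TGACG in Pck1, CACGTG in Gk and CCAAT in Gpam, counting the first window listed for each gene. These are matches of letters in a sequence and were not measured as binding sites.

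Total counts per library ranged from 10710277 to 36738954. Values per mouse below are log2 CPM after TMM normalization with a prior count of 2, and group values are given as mean ± SD. Summed CPM of 10 adipocyte markers (Adipoq, Plin1, Cidec, Fabp4, Lep, Cfd, Lipe, Pnpla2, Slc2a4 and Retn) ranged from 15700 in HC replicate 3 to 141000 in C replicate 3, with none at 0 in any group. Mitochondrially encoded genes took 1.32% to 7.35% of the counts in 15 libraries and more than 10% in the other 5, namely C replicates 1 and 2 (23.0% and 17.9%), HC replicate 3 (13.9%), CC_s replicate 1 (11.9%) and CCC replicate 2 (11.2%). Nuclear-retained RNA (Malat1, Neat1 and Meg3) was also highest in 4 of these 5, at 2.68% to 4.31% of the counts. Because 2 of the 3 C mice are among them, the fit was repeated without these libraries, and its values are given where they change a call or a value of H against C. That fit keeps 1 C mouse (replicate 3) and 1 CCC mouse, which are assumed to vary like the mice of the other groups, so calls kept or lost in it against C or CCC rest on a single control.

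Compared per kilobase of exon in the 10 chow mice, Dgat2 had the highest level, at 7.96 ± 0.89 log2 CPM per kb (SD, n = 10), and Gk the lowest, at 0.36 ± 0.86. Gpd1 (7.31 ± 1.05) and Pck1 (7.15 ± 0.85) followed Dgat2. Agpat2 stood at 6.52 ± 1.13, Lpin1 at 6.33 ± 0.61 and Dgat1 at 5.92 ± 0.50. The lower part of the order was Aqp7 at 4.70 ± 0.72, Mogat1 at 3.64 ± 0.58 and Gpam at 1.63 ± 0.63. Neighbours in this order did not always differ beyond their spread. Gpd1 exceeded Pck1 in 5 of 10 mice and Agpat2 exceeded Lpin1 in 6 of 10, whereas Dgat1 exceeded Aqp7 and Mogat1 exceeded Gpam in 10 of 10.

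**Figure D1:**
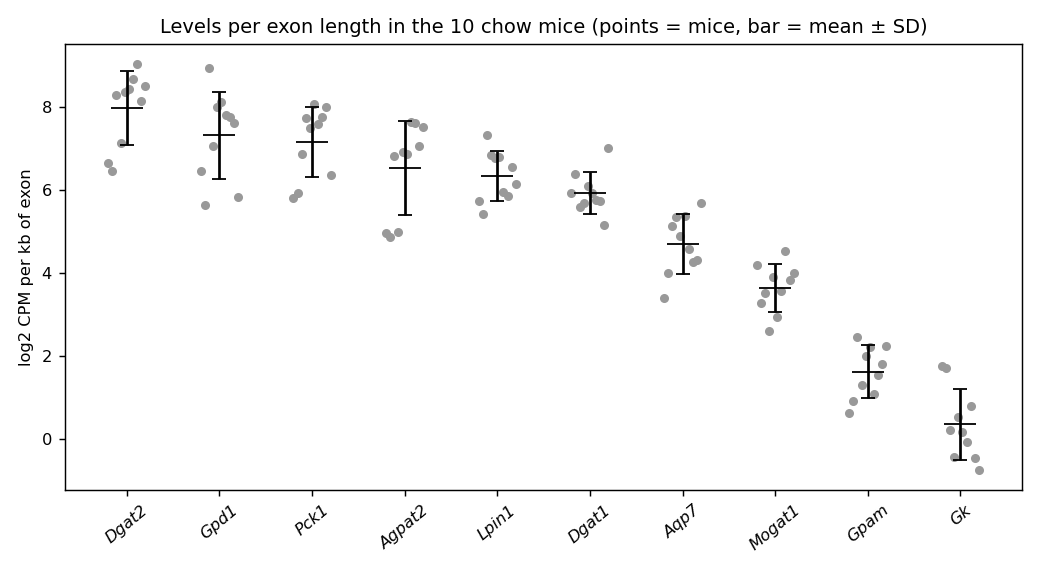
Level of each gene per kilobase of exon (log2 CPM per kb, vertical axis) in the 10 chow mice of C, CC_s, CC_l and CCC. Grey points are mice and the black bar with whiskers is the mean ± SD. The levels ran from 7.96 for Dgat2 to 0.36 for Gk.

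Each comparison with chow asked which genes of this pathway differed with obesity or after WL. By the quasi-likelihood test of edgeR, a gene was called where its log2 fold change was 1 or more in either direction and its nominal p under 0.01, the cut-offs that the methods state. In H against C, 2 of the 10 genes were called, where 6.49% of the 21464 genes tested were. Aqp7 was higher and Mogat1 lower. In HC against CC_s none of the 10 was called (1.74% of all genes). Aqp7 alone was called in HH against CC_l, where 6.79% of all genes were, and none in HHC against CCC (3.12%). In this edgeR fit no member reached a Benjamini-Hochberg adjusted p under 0.05 in any comparison, the smallest being 0.0958, 0.624, 0.144 and 0.318 in the order given. At an unadjusted p under 0.05 there were 4, 0, 1 and 3 members, against 17.1%, 8.69%, 17.4% and 10.7% of all genes. DESeq2 called 3, 0, 1 and 1 members with the same cut-offs, and 2163, 727, 2309 and 1185 of all genes. In H these were Mogat1, Lpin1 and Aqp7 (adjusted p = 0.00765, 0.0129 and 0.0292). They were Aqp7 in HH (adjusted p = 0.0401) and Dgat1 in HHC (adjusted p = 0.126). In edgeR without the filter on low counts, Mogat1 and Aqp7 in H had adjusted p of 0.00622 and 0.0259, and Aqp7 in HH 0.0317.

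**Figure D2:**
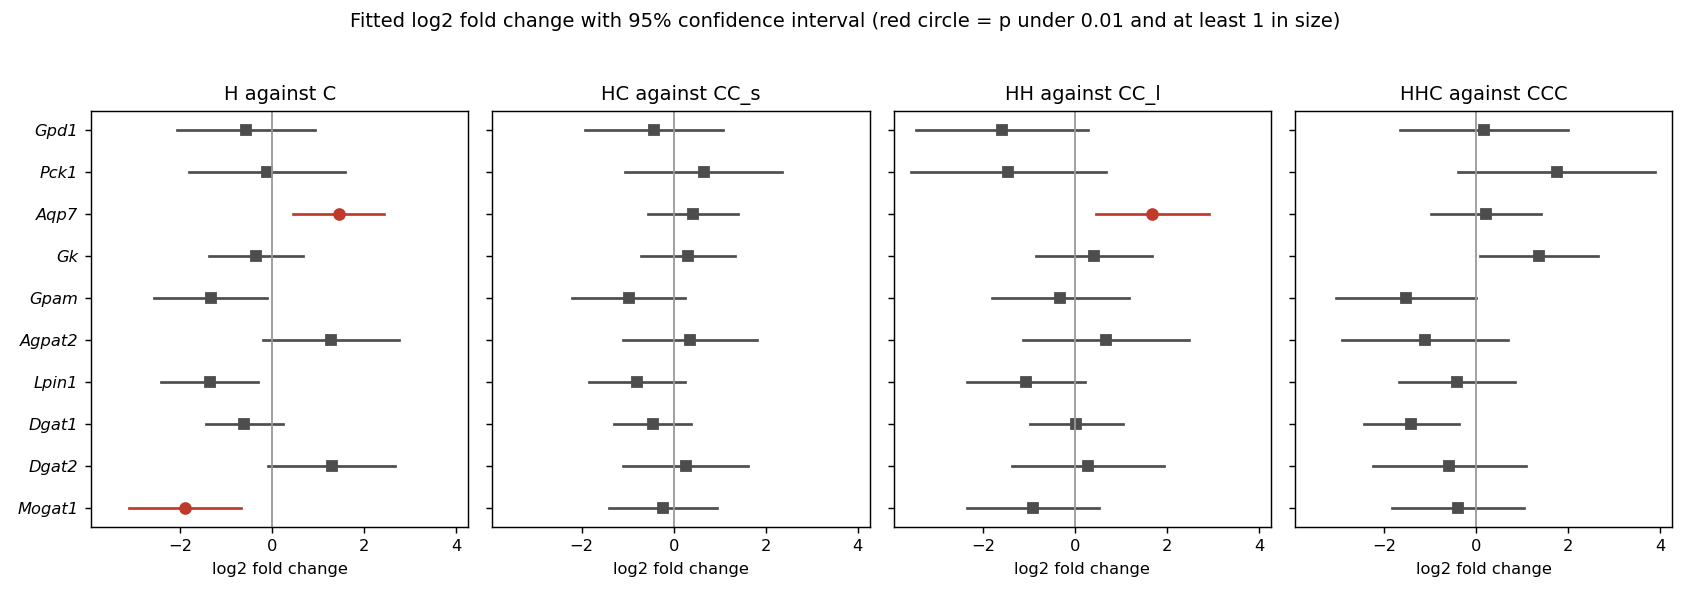
Fitted log2 fold change of each of the 10 genes (horizontal axis) with its 95% confidence interval in the 4 comparisons with chow. Red circles mark the calls, which are Aqp7 at 1.44 and Mogat1 at -1.90 in H against C and Aqp7 at 1.68 in HH against CC_l.

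The group ranges of 6 members did not overlap in H against C, where those of 25.1% of all genes did not. The counts were 2 members in HC against CC_s (13.8% of all genes), 6 in HH (55.3%) and 5 in HHC (28.8%), each beside its chow group. The median log2 fold change of the 10 genes was -0.46 in H, 0.02 in HC, -0.15 in HH and -0.41 in HHC, beside -0.15, 0.27, -0.23 and -0.06 over all genes. Members lay on both sides of 0 in all 4 comparisons, with 7, 5, 5 and 6 of the 10 lower than in chow.

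**Figure D3:**
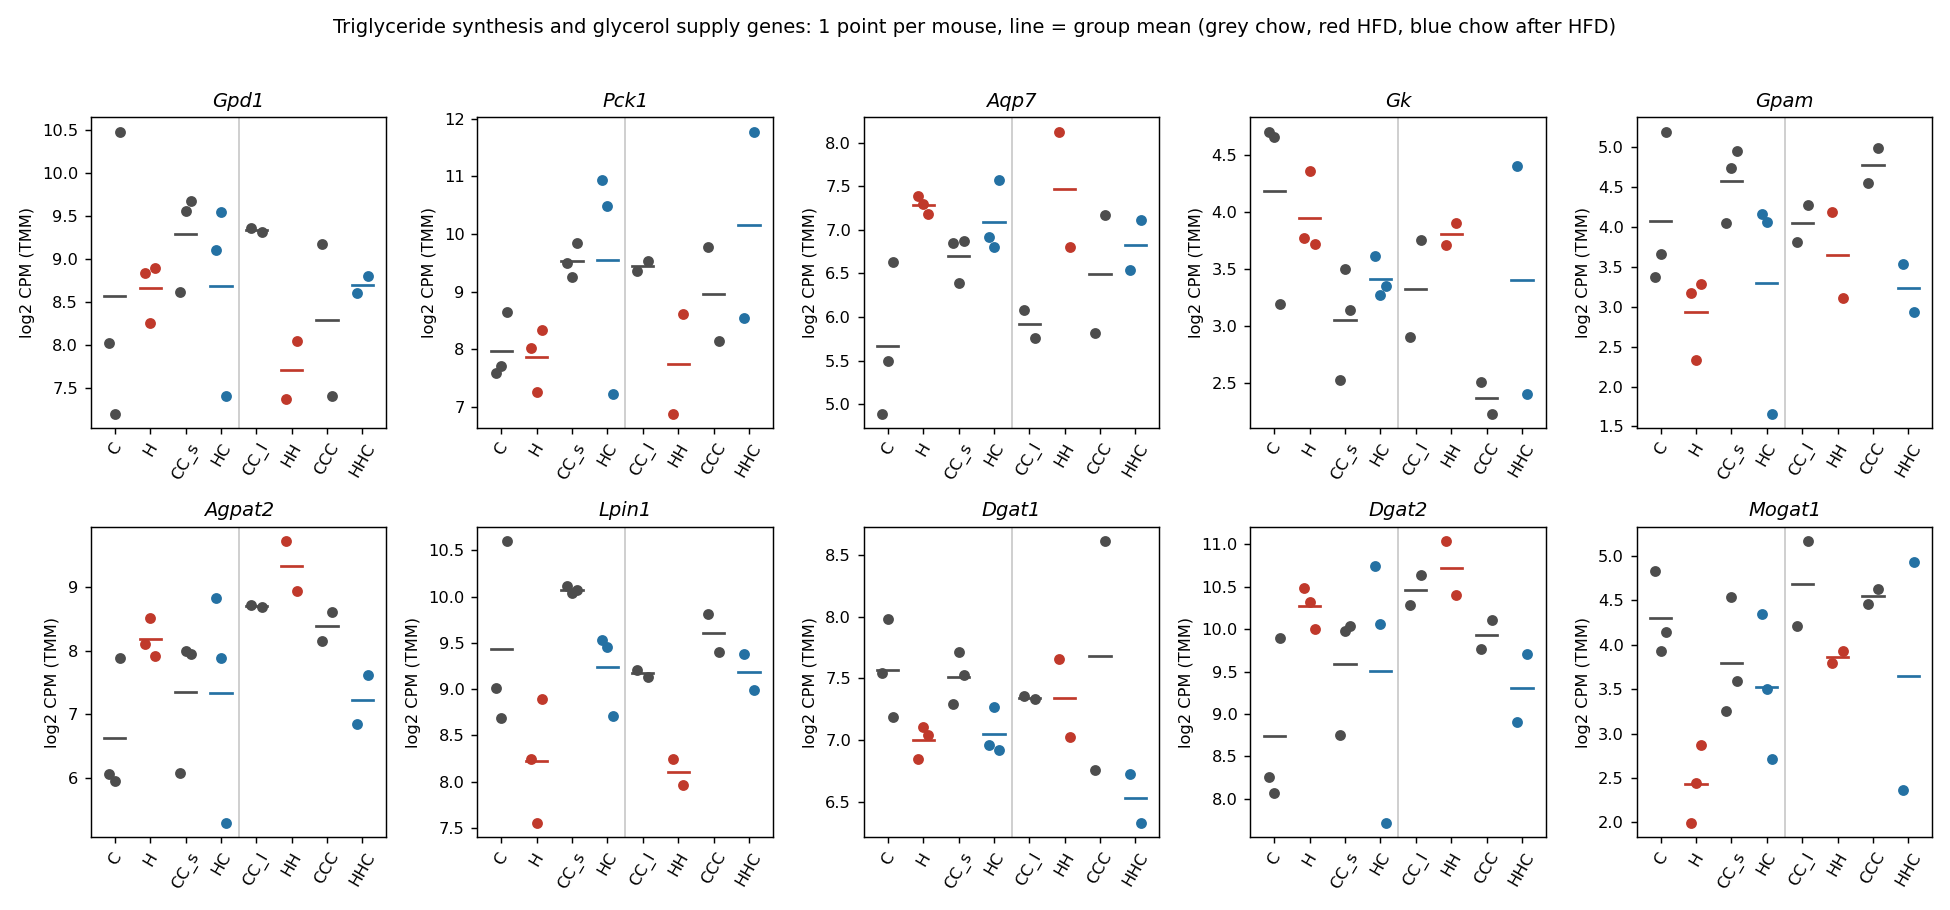
Log2 CPM (vertical axis) of the 10 genes in every mouse, by group, with the short arm left and the long arm right of the grey line. Points are mice, lines are group means, grey is chow, red HFD and blue chow after HFD. Aqp7 in H lies above C and Mogat1 in H lies below C without overlap.

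Aqp7, the glycerol channel, was the member called in both obese groups. Its level was 4.89, 5.49 and 6.63 log2 CPM in the C mice (5.67 ± 0.88, n = 3) and 7.39, 7.30 and 7.18 in the H mice (7.29 ± 0.11, n = 3). All H mice were above all C mice, and C spread more widely than H. The fitted log2 fold change was 1.44 (SE 0.47, a 2.71-fold difference), adjusted p = 0.123. After WL the values were 6.92, 6.80 and 7.57 in HC and 6.85, 6.39 and 6.87 in CC_s, which overlapped, with a log2 fold change of 0.42 (SE 0.46). In the long arm, CC_l mice stood at 6.08 and 5.76 and HH mice at 8.13 and 6.80. The HH mice were again the higher, by 1.68 (SE 0.58, 3.21-fold, adjusted p = 0.144) on the log2 scale. The HHC mice, at 6.54 and 7.11, lay within the CCC values of 5.82 and 7.17, and the difference was 0.21 (SE 0.56).

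These Aqp7 calls were lost in most fits that left out 1 mouse. The H call was lost in 5 of the 6 fits that left out 1 mouse, and held only without C replicate 3, with log2 fold changes from 1.19 to 2.07. Without the 5 libraries above 10% mitochondrial counts, which left 1 C mouse, the value was 0.77 and the call was lost. In HH it was lost in 3 of 4 such fits and fell to 0.87 without HH replicate 1, but stood at 1.63 (adjusted p = 0.0353) without the 5 libraries. Endothelial markers (Pecam1, Cdh5, Kdr, Tek, Emcn and Flt1) were higher in the same comparisons, since 3 of 6 were called higher in H and 6 of 6 in HH. Their summed level was 279 to 656 CPM in C and 1210 to 1740 in H, and 138 to 163 in CC_l and 774 to 1410 in HH, with none at 0, and capillary endothelium is known to express Aqp7. Their part in the Aqp7 difference was not tested.

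Mogat1, the monoacylglycerol acyltransferase, was the member called lower. It stood at 4.83, 3.93 and 4.15 log2 CPM in C (4.30 ± 0.47, n = 3) and at 1.99, 2.44 and 2.87 in H (2.43 ± 0.44, n = 3), and the groups did not overlap. Counts were 60 to 605 per library over the 20 mice, so this is a gene of low depth. The fitted log2 fold change was -1.90 (SE 0.58), a level of 0.269 times that of C, adjusted p = 0.0958. The call held without C replicate 2, C replicate 3 or H replicate 3 and was lost without C replicate 1, H replicate 1 or H replicate 2, over values from -2.14 to -1.53. Without the 5 libraries of high mitochondrial share, against C replicate 3 alone, the value was -1.58 and the call was lost.

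After 8 weeks of chow, Mogat1 was at 4.35, 3.50 and 2.71 in HC and at 3.25, 4.54 and 3.59 in CC_s, and the groups overlapped (log2 fold change -0.23, SE 0.56). The difference between the H and HC effects was -1.67 (SE 0.79, adjusted p = 0.423), so a change between obesity and WL was not shown for Mogat1. In the long arm, HH mice at 3.80 and 3.93 lay below CC_l mice at 4.21 and 5.17, by 0.91 on the log2 scale with SE 0.68, without a call (adjusted p = 0.502). HHC mice, at 2.36 and 4.93, were further apart than any other pair and enclosed the CCC mice at 4.46 and 4.63.

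Gpam, the mitochondrial glycerol-3-phosphate acyltransferase that catalyses the first acylation, had negative fitted values in all 4 comparisons and no call with the settings used throughout. Without the filter on low counts it was called in H (-1.28, adjusted p = 0.134 by edgeR). C mice were at 3.37, 3.66 and 5.20 and H mice at 3.17, 2.33 and 3.29, without overlap (log2 fold change -1.34, SE 0.59, adjusted p = 0.251). HC mice were at 4.17, 4.07 and 1.66 beside CC_s mice at 4.05, 4.74 and 4.96 (-0.98, SE 0.58). HC replicate 3 was the lowest of all 20 mice for Gpam, at 62 counts. In HH (4.19 and 3.11) the values overlapped those of CC_l (3.82 and 4.28), with a log2 fold change of -0.32. HHC mice, at 3.54 and 2.93, were below CCC mice at 4.56 and 4.99 without overlap, by -1.53 (SE 0.72, adjusted p = 0.464). In H against C without the 5 libraries of high mitochondrial share, Gpam reached -2.12 (adjusted p = 0.0335), measured against the single remaining C mouse, which had the highest Gpam of all 20, and without that mouse (C replicate 3) it was -0.54.

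Lpin1, the phosphatidate phosphatase lipin 1, was also negative in all 4 comparisons and not called with the settings used throughout. In H it was called by edgeR with RLE normalization (-1.39, adjusted p = 0.126) and by DESeq2 (-1.39, adjusted p = 0.0129). It stood at 9.01, 8.69 and 10.60 in C and at 8.24, 7.55 and 8.89 in H (log2 fold change -1.36, SE 0.50, adjusted p = 0.171). The CC_s mice were close together at 10.11, 10.04 and 10.07, and the HC mice lay below them at 9.53, 9.46 and 8.71 (-0.80, SE 0.49, adjusted p = 0.634). In the long arm, CC_l mice were at 9.21 and 9.13 and HH mice at 8.24 and 7.96 (-1.07, SE 0.61, adjusted p = 0.369). HH was thus below CC_l without overlap, and the HHC mice at 9.38 and 8.99 were below the CCC mice at 9.81 and 9.40 by a smaller fitted -0.42 (SE 0.60). Lpin1 in H against C without the 5 libraries was -2.16 (adjusted p = 0.0279), again against 1 C mouse, while without C replicate 3 it was -0.53.

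Agpat2, the 1-acylglycerol-3-phosphate acyltransferase whose loss causes lipodystrophy, and Dgat2 differed from Gpam and Lpin1 in direction. Agpat2 was at 6.06, 5.95 and 7.89 in C and at 8.11, 8.51 and 7.91 in H (log2 fold change 1.27, SE 0.70, adjusted p = 0.376). For Dgat2 the C mice were at 8.26, 8.07 and 9.90 and the H mice at 10.49, 10.32 and 10.00 (1.29, SE 0.65, adjusted p = 0.328). All H mice were above all C mice for both genes, but the lowest H mouse exceeded C replicate 3 by little. Without the 5 libraries, which include the low C mice, the values were 0.42 for Agpat2 and 0.49 for Dgat2 (adjusted p = 0.626 and adjusted p = 0.554). Without C replicate 3, the C mouse that fit kept, they were 2.19 and 2.11 (adjusted p = 0.119 and adjusted p = 0.104), and Dgat2 was called.

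In HC, Agpat2 was at 8.82, 7.89 and 5.29 against 6.08, 8.00 and 7.95 in CC_s, and Dgat2 at 10.74, 10.06 and 7.71 against 8.75, 9.98 and 10.04. The groups overlapped for both genes, and HC replicate 3 was the lowest of all 20 mice for both. The fitted values of 0.35 and 0.26 follow the mean on the linear scale, whereas the means of log2 CPM were 7.33 in HC and 7.34 in CC_s for Agpat2 and 9.50 and 9.59 for Dgat2, so the direction depends on the scale. In the long arm, Agpat2 was at 9.72 and 8.94 in HH against 8.72 and 8.69 in CC_l (0.68, SE 0.85) and at 6.84 and 7.62 in HHC against 8.15 and 8.61 in CCC (-1.12, SE 0.86). Neither pair of groups overlapped and neither was called. Dgat2 gave 11.04 and 10.40 in HH beside 10.29 and 10.64 in CC_l (0.28, SE 0.79), and 8.90 and 9.71 in HHC beside 9.76 and 10.11 in CCC (-0.59, SE 0.79).

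Agpat2 and Dgat2 varied together over the 20 mice, with a Pearson correlation of their log2 CPM of 0.97 and of 0.98 after removing group means. This is a description over libraries that share normalization and differ in quality, and the 4 lowest mice for both genes (HC replicate 3, C replicates 2 and 1 and CC_s replicate 1) were 4 of the 5 libraries above 10% mitochondrial counts. The fifth, CCC replicate 2, was not low, at 8.61 for Agpat2 and 10.11 for Dgat2. Other pairs were looser, with 0.73 for Gpam and Lpin1, 0.63 for Lpin1 and Gpd1 and 0.61 for Gpd1 and Pck1. Dgat1 and Dgat2, which catalyse the same last step, had a correlation of -0.01.

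**Figure D4:**
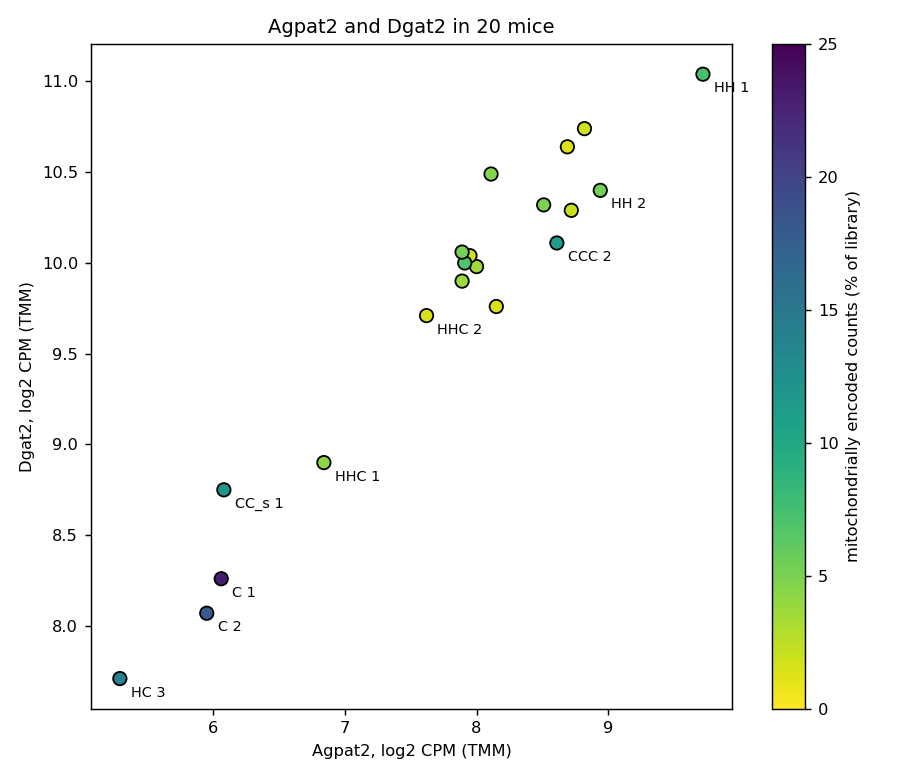
Dgat2 (vertical axis) against Agpat2 (horizontal axis), both in log2 CPM, for the 20 mice, coloured by the share of counts on mitochondrially encoded genes. Libraries above 10% and the HH and HHC mice are named, and 4 of the 5 libraries above 10% are at the lower left.

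Dgat1 was the least variable member, with an SD of 0.50 log2 over the 20 mice. It stood at 7.54, 7.98 and 7.19 in C and at 6.85, 7.11 and 7.04 in H (log2 fold change -0.61, SE 0.39, adjusted p = 0.453), without overlap, and without the 5 libraries it was -0.08. HC mice at 6.96, 7.27 and 6.92 were likewise below CC_s mice at 7.29, 7.71 and 7.53, by -0.46 (SE 0.39). HH mice at 7.66 and 7.03 enclosed CC_l at 7.36 and 7.33, with a fitted 0.03. HHC mice at 6.73 and 6.33 were below CCC mice at 6.76 and 8.61 by -1.42 (SE 0.49, adjusted p = 0.318), just outside the threshold. That value rested on CCC replicate 2, which held the highest Dgat1 of all mice and 11.2% mitochondrial counts, since without it the log2 fold change was -0.21. The difference between the HH and HHC effects was 1.45 (SE 0.68, adjusted p = 0.319) and ranged from 0.25 (without CCC replicate 2) to 2.10 (without CCC replicate 1) with single mice left out.

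Gpd1, the cytosolic glycerol-3-phosphate dehydrogenase, had the widest scatter among C mice, at 8.02, 7.20 and 10.48. H mice lay between, at 8.83, 8.26 and 8.89. The fitted log2 fold change was -0.57 (SE 0.71), whereas the mean of log2 CPM was 8.66 in H and 8.57 in C. Leaving out C replicate 3 turned the value to 1.02. Without the 5 libraries of high mitochondrial share, against that same C mouse alone, it was -1.69 (adjusted p = 0.0361), a call. In HC (9.10, 9.54 and 7.40) and CC_s (8.62, 9.56 and 9.67) the groups overlapped (-0.43, SE 0.71). HH mice at 7.37 and 8.04 were below CC_l mice at 9.36 and 9.31 without overlap, by -1.59 (SE 0.89, adjusted p = 0.359). This comparison holds none of the 5 libraries, and the fit without them gave -1.62 (adjusted p = 0.0231), a call under that alternative alone among those keeping both HH and both CC_l mice. HHC (8.60 and 8.80) lay within CCC (9.17 and 7.40), at 0.16 (SE 0.87).

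Pck1, the glyceroneogenic enzyme, ranged most widely, from 6.88 in HH replicate 1 to 11.78 in HHC replicate 2, and was not called. C mice were at 7.58, 7.70 and 8.64 and H mice at 8.02, 7.26 and 8.33 (log2 fold change -0.12, SE 0.81), and the value was -0.59 without the 5 libraries and 0.30 without C replicate 3. CC_s mice were at 9.50, 9.26 and 9.84, while HC mice were at 10.94, 10.49 and 7.23, so that 2 HC mice were above and 1 was below all CC_s mice (0.65, SE 0.81). HH mice at 6.88 and 8.62 were below CC_l mice at 9.36 and 9.53 by -1.45 (SE 1.01, adjusted p = 0.465). HHC mice at 8.55 and 11.78 overlapped CCC mice at 9.77 and 8.14, with a fitted 1.75 (SE 1.02, adjusted p = 0.561). That direction depended on HHC replicate 2, without which the value was -0.63. The difference between the HH and HHC effects on Pck1 was -3.19 (SE 1.43, adjusted p = 0.293) and was -0.87 to -4.31 when single mice were left out.

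Gk, glycerol kinase, had low counts (84 to 750 per library). It was at 4.71, 4.66 and 3.19 in C and at 3.77, 4.36 and 3.72 in H (log2 fold change -0.36, SE 0.49), and without the 5 libraries the sign turned to 0.90. HC mice at 3.62, 3.27 and 3.35 overlapped CC_s mice at 2.53, 3.50 and 3.14 (0.31, SE 0.49). HH mice at 3.71 and 3.91 overlapped CC_l mice at 2.90 and 3.76 (0.42, SE 0.60). The HHC mice were at 4.41 and 2.40 and the CCC mice at 2.51 and 2.23 (1.36, SE 0.61, adjusted p = 0.441), a difference that was 0.02 without HHC replicate 1.

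The difference between the obesity effect and the WL effect was tested for each member within each arm. No member reached an adjusted p under 0.05 in the edgeR fit used throughout, where 0.0% of all genes did in the short arm and 0.815% in the long arm. The smallest adjusted p among the members was 0.423 in the short and 0.293 in the long arm. Without the filter on low counts, Pck1 passed in the long arm (-3.17, adjusted p = 0.0379 by edgeR), where 1266 genes did. At an unadjusted p under 0.05 there were 0 members in the short and 2 (Dgat1 and Pck1) in the long arm, beside 11.8% and 15.5% of all genes. With DESeq2, 400 genes in the short and 1215 in the long arm passed at an adjusted p under 0.05, none of them a member. For Aqp7 the differences were 1.02 (SE 0.65, adjusted p = 0.577) and 1.48 (SE 0.80, adjusted p = 0.389), the latter from 0.65 to 2.00 with single mice left out, so the lower values after WL were not shown to differ from those in obesity. Effects of the short and the long arm were not tested against each other.

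Of 42 other genes of the same steps, 41 were tested, and 8 were called in H against C (2 higher, 6 lower), beside 6.49% of all genes. The count was 1 in HC, 7 (4 higher, 3 lower) in HH and 2, both lower, in HHC, each against its own chow group. Their median log2 fold change was -0.36 in H, -0.14 in HC, -0.35 in HH and -0.50 in HHC. The counts were 10, 2 (Gpd2 and Fitm1), 13 and 0 without the 5 libraries of high mitochondrial share.

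Among isoforms of the first acylation, both Gpat3 and Gpat4, the acyltransferases of the endoplasmic reticulum, fell in H. Gpat3 was at 8.13, 7.29 and 7.81 in C and at 5.73, 6.27 and 6.58 in H (log2 fold change -1.55, SE 0.37, adjusted p = 0.0385). Gpat4, the most abundant of the group, was at 8.45, 7.97 and 8.56 in C and 7.12, 6.76 and 7.29 in H (-1.28, SE 0.31, adjusted p = 0.0416). Both calls were kept whichever mouse was left out. Gpat4 was also called in HH, at 7.08 and 6.71 against 8.52 and 7.94 in CC_l (-1.35, SE 0.38, adjusted p = 0.0741), a call lost without CC_l replicate 1 or HH replicate 2. In HC the fitted values were -0.79 for Gpat3 and -0.44 for Gpat4, and in HHC neither was called, with 0.27 for Gpat4.

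Gpd2, the mitochondrial glycerol-3-phosphate dehydrogenase that consumes glycerol 3-phosphate, fell in both obese groups. It stood at 6.80, 6.76 and 8.36 in C against 5.33, 4.94 and 5.72 in H (-2.15, SE 0.46, adjusted p = 0.0228). In the long arm it was at 7.87 and 7.38 in CC_l against 5.27 and 4.99 in HH (-2.51, SE 0.57, adjusted p = 0.0334). The call was kept with every mouse left out in turn in both comparisons. The WL groups gave -1.05 in HC and -0.54 in HHC, not called, but without the 5 libraries Gpd2 was called lower in HC (-1.16, adjusted p = 0.997). Pgp, a phosphatase that acts on glycerol 3-phosphate, was called lower in HH alone (-2.03, adjusted p = 0.128). The call was lost in 3 of 4 fits with 1 mouse left out, among them the fit without CC_l replicate 1 (-0.77).

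Plpp1, a lipid phosphate phosphatase, rose in both obese groups, from 3.16, 2.93 and 3.14 in C to 5.32, 6.45 and 5.05 in H (2.67, SE 0.49, adjusted p = 0.00996) and from 4.33 and 3.33 in CC_l to 6.63 and 6.20 in HH (2.52, SE 0.59, adjusted p = 0.0367). The HH call was lost without CC_l replicate 2. The values were 0.95 in HC and -1.39 in HHC. Lpin3 was called higher in H (1.74, adjusted p = 0.127), in only 2 of 6 fits with 1 mouse left out and not in the fit without the 5 libraries (2.17, adjusted p = 0.144). Higher in HH were also Acsl5 (1.20, adjusted p = 0.0881), an acyl-CoA synthetase, Lclat1 (1.39, adjusted p = 0.113), a lysocardiolipin acyltransferase, and Tmem68 (2.30, adjusted p = 0.0343). All 3 calls were lost without CC_l replicate 1. The Acsl5 call was also lost without HH replicate 1, and the Lclat1 call without CC_l replicate 2 or HH replicate 1. Summed spermatid markers were 3360 CPM in CC_l replicate 1, and their bearing on these calls was not tested.

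Markers of macrophages rose in the same comparisons. Of 10 (Adgre1, Cd68, Csf1r, Lyz2, Tyrobp, C1qa, C1qb, Fcer1g, Cd14 and Itgam), 7 were called higher in H, 7 in HC, 10 in HH and 0 in HHC. Their summed level was 181 to 309 CPM in C and 585 to 3380 in H, 208 to 230 in CC_s and 534 to 1370 in HC, 223 to 376 in CC_l and 3560 to 4720 in HH, and 718 to 760 in CCC and 717 to 1350 in HHC, with none at 0. Adipocyte progenitor and fibroblast markers (Pdgfra, Dpp4, Pi16, Dcn, Lum, Col1a1 and Cd34) were called higher for 3 of 7 in H and 5 of 7 in HH. Those in H were Lum, Col1a1 and Cd34, while Pi16 (-1.70) and Dpp4 (-0.82) were lower in H without a call. In HC 1 (Pdgfra) was called higher, and in HHC 0. The summed level of the 7 was 591 to 1410 CPM in C and 1050 to 3380 in H, and 402 to 651 in CC_l and 3570 to 5550 in HH. Of 6 epididymal epithelium markers, 3 (Lcn8, Lcn9 and Rnase10) were called higher in H and 0 in HH. Without a call, Cst8 was higher and Defb42 and Crisp1 were lower in H. Their summed level was 1810, 18.1 and 25.9 CPM in the C mice and 137 to 1360 in H. The part of all these cells in the higher Plpp1, Lpin3, Acsl5, Lclat1 and Tmem68 was not tested. Of the 10 adipocyte markers, 1 (Lep) was called higher and 2 (Cfd and Slc2a4) lower in H, and 1 (Cfd) lower in HH. With or without a call, 9 were lower and 1 higher in HH (median -1.43), and 6 lower and 4 higher in H (median -0.52). Their summed level was 68400 to 76200 CPM in CC_l and 29100 to 33500 in HH. In the short arm it was 30200 to 141000 in C and 32000 to 58300 in H. The part of this in the lower values of pathway genes was not tested. Fewer adipocytes and less mRNA per adipocyte cannot be told apart in these libraries.

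Of 7 transcription regulators, Srebf1 (SREBP1, an activator of fatty acid and triglyceride synthesis), Mlxipl (ChREBP, its glucose-responsive counterpart) and Ppargc1a (PGC-1α, a coactivator) fell in H. Mlxipl was at 7.83, 8.26 and 6.93 in C and at 4.38, 3.13 and 4.56 in H (-3.63, SE 0.69, adjusted p = 0.0116). For Srebf1 the C mice were at 8.55, 8.72 and 8.86 and the H mice at 6.80, 6.68 and 6.87 (-1.93, SE 0.47, adjusted p = 0.0405). Ppargc1a changed by -2.12 (SE 0.47, adjusted p = 0.0264). All 3 calls were kept with each mouse left out in turn. Against the single C mouse left without the 5 libraries, Mlxipl (-2.69) and Srebf1 (-1.97) were called and Ppargc1a (-1.43, adjusted p = 0.135) was not.

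The same 2 factors were called lower in HHC, Srebf1 at 7.36 and 6.19 against 8.39 and 9.78 in CCC (-2.36, SE 0.58, adjusted p = 0.196) and Mlxipl at 5.43 and 4.11 against 6.31 and 8.92 (-3.23, SE 0.82, adjusted p = 0.202). Leaving out CCC replicate 2 or HHC replicate 2 ended both calls, as did leaving out the 5 libraries, which include CCC replicate 2. In HC the values were -0.92 for Srebf1 and -0.26 for Mlxipl, and in HH -0.15 and -1.86, without a call. Pparg, Cebpa, Nr1h3 and Foxo1 were called in none of the 4 comparisons, with fitted values from -1.70 (Cebpa in HH) to 0.39 (Nr1h3 in HHC). Under other settings some of them were called lower. In the fit without the 5 libraries these were Pparg (-1.47, adjusted p = 0.086) and Nr1h3 (-1.21, adjusted p = 0.0744) in H, against 1 C mouse, and Cebpa (-1.74, adjusted p = 0.0254) and Mlxipl (-1.85, adjusted p = 0.0804) in HH, where all mice remained. Cebpa in HH was also called without the filter on low counts and with HH and CC_l fitted alone, and Mlxipl in HH without the filter.

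**Figure D5:**
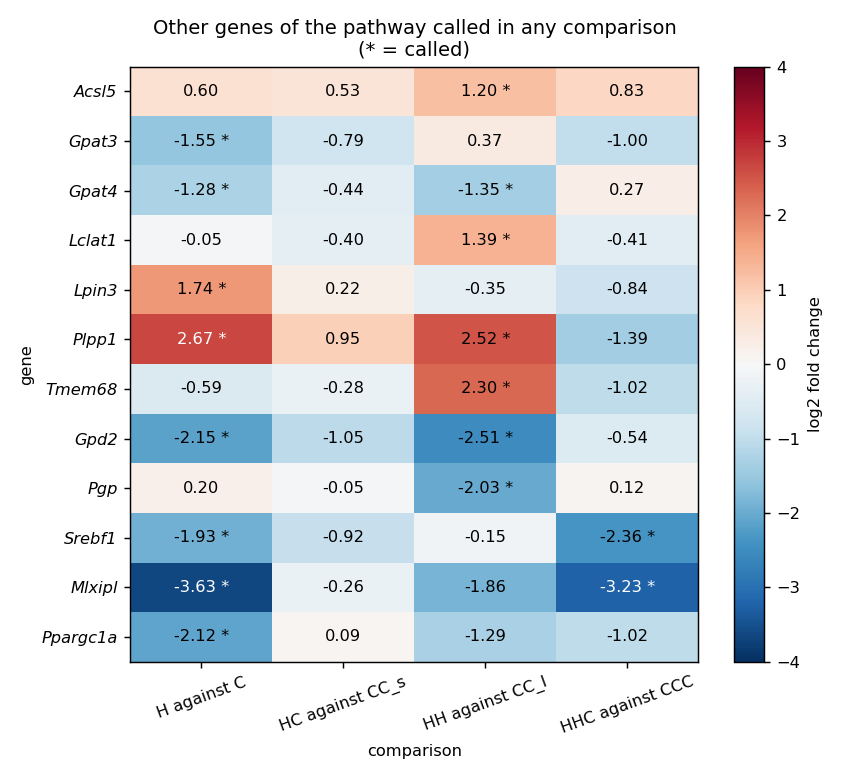
Fitted log2 fold change (colour and printed value) of the 12 other genes of the pathway called in any comparison, apart from Gk2, in the 4 comparisons with chow (columns). Asterisks mark calls, and Gpat4, Plpp1 and Gpd2 were called in both H and HH.

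The most abundant genes of the remaining steps were not called in any comparison with the settings used throughout. Acsl1 had fitted values of -0.07, -0.58, 0.34 and 0.35 in H, HC, HH and HHC, Agpat3 of -0.09, -0.08, -0.61 and -0.07, and Plpp3 of 0.21, 0.08, 1.26 and -0.83. Bscl2 (seipin, which shapes nascent lipid droplets) gave 0.61, -0.12, -0.10 and -0.71, Pcx (pyruvate carboxylase) -0.75, -0.34, -1.35 and -0.84, and the aquaporin Aqp11 -1.08, 1.08, -2.46 and 0.45. Of these, Pcx was called lower without the 5 libraries in H (-1.75, adjusted p = 0.0293, against 1 C mouse) and in HH (-1.39, adjusted p = 0.0303), and in HH also when those groups were fitted alone. Plpp3 was called higher in HH by DESeq2, without the 5 libraries and when those groups were fitted alone, at 1.24 to 1.44. Aqp11 was called lower in HH without the filter on low counts or without CC_l replicate 2 (-2.45 and -3.41). The single call in HC was Gk2, a testis paralogue of glycerol kinase. It had 0 counts over the CC_s mice and 636 over the HC mice, 97.5% of them in HC replicate 3, whose summed spermatid markers (Tnp1, Tnp2, Prm1, Prm2, Ldhc, Odf1 and Acrv1) were 517 CPM against 0.127 to 5.69 in CC_s. With a floor of 3 counts over the CC_s group, Gk2 was at least 174-fold higher in HC than in CC_s. The call was lost in 4 of 6 fits with 1 mouse left out (without HC replicate 3 or any of the CC_s mice). It was also lost by DESeq2, with only HC and CC_s fitted, with the replicate block and without the 5 libraries. Gk2 was higher still in a long-arm chow mouse, CC_l replicate 1, at 99.5 CPM (3262 counts) against 30.7 CPM in HC replicate 3. Summed spermatid markers of CC_l replicate 1 were 3360 CPM. C replicates 1 and 2 held 42 and 12 Gk2 counts, and the remaining chow mice 0 to 6.

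The mean of the members' centred log2 CPM was lowest in HC replicate 3 (-1.07), C replicate 2 (-0.59) and C replicate 1 (-0.50) and highest in HC replicate 1 (0.59). Among 9351 other genes with a mean log2 CPM of at least 3, the 5 whose levels followed this mean most closely over the 20 libraries were Mavs (Pearson correlation 0.93), A530016L24Rik (0.92), Mdh2, Atp5b and Mrps2 (0.91 each). Mdh2, Atp5b and Mrps2 are nuclear genes for mitochondrial proteins, and MAVS is an adaptor on the mitochondrial outer membrane.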

How the data were processed

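Ribosome-bound mRNA from epiAT adipocytes of 20 mice was measured by TRAP–seq from oligo-dT primed, template-switched and tagmented cDNA, so depth per gene also depends on 3′ integrity and length. The authors checked reads with FastQC 0.11.9, trimmed them with Trim Galore 0.6.6, aligned them to mm10 with HISAT2 2.2.1 and deposited whole-number read counts per gene from featureCounts (Subread 2.0.1), without normalization. The annotation, strand setting and pair handling of the counting are not given in the sources used here. Between 74.4% and 89.2% of the nonzero counts in a library were even, so halved counts were tried. Columns were assigned to mice by the library labels. No libraries were duplicates.

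From the deposited counts, 21464 genes passing filterByExpr were fitted with edgeR 4.0.16 (TMM, quasi-likelihood, prior of 5.29 degrees of freedom) in R 4.3.3, all 8 groups at once, since groups of 2 or 3 mice estimate spread poorly. Calls needed a log2 fold change of 1 or more in either direction at a nominal p under 0.01, and differences between effects a Benjamini-Hochberg adjusted p under 0.05. Tests are two-sided and cover the spread between these mice. The procedure was tested on simulated data. Levels per kb used the union of GENCODE vM21 exons. Sequences came from RefSeq (GRCm38.p6).

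The genes and lists were chosen with earlier results of these data known. Named genes were all members, every other pathway gene called in any comparison, otherwise the most abundant gene of each step, and the 5 genes closest in pattern to the members' mean. Alternatives were RLE normalization, DESeq2 1.42.0, no filter, only the compared groups, a replicate block, halved counts, an adjusted p threshold and leaving out each mouse. Leaving out the 5 libraries above 10% mitochondrial counts was chosen after seeing the data. Plots were made in Python 3.11.15 with matplotlib 3.10.9.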

Additional observations from a re-analysis of the deposited data

Results flagged for a closer look

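One member moved in opposite directions in the long arm without overlap between groups in either comparison. Agpat2 had a log2 fold change of 0.68 in HH against CC_l, where both HH mice (9.72 and 8.94 log2 CPM) were above both CC_l mice (8.72 and 8.69), and of -1.12 in HHC against CCC, where both HHC mice (6.84 and 7.62) were below both CCC mice (8.15 and 8.61). The difference between these effects was 1.80 (SE 1.21), with adjusted p = 0.494 in edgeR's quasi-likelihood test, and did not pass the threshold. The ranges of 55.3% and 28.8% of all genes did not overlap in these comparisons, each of 2 mice against 2.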

How the results depend on the processing

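Under the alternatives that kept all compared mice and the one that left out the 5 libraries of high mitochondrial share, 341 of 344 member values kept their direction, and with 1 mouse left out 219 of 236 did. The 344 include the adjusted p threshold, which reuses the same fold changes and so could not change a direction. They also include halved counts, which rescale the same data. The 3 exceptions under the added alternative were Gk in H (0.90), Dgat1 in HH (-0.01) and Gpd1 in HHC (-0.39). The exceptions with 1 mouse left out belonged to Gpd1 in H (range -1.04 to 1.02), Pck1 in H (-0.37 to 0.30), Agpat2, Dgat2 and Mogat1 in HC (-0.46 to 0.86, -0.38 to 0.74 and -0.75 to 0.25), Gpam, Dgat1 and Dgat2 in HH (-0.97 to 0.12, -0.32 to 0.32 and -0.08 to 0.56) and Mogat1, Gpd1, Pck1 and Aqp7 in HHC (-2.22 to 0.38, -0.47 to 1.31, -0.63 to 2.78 and -0.31 to 1.04). The number of members called ranged from 0 to 3 in H, was 0 throughout in HC, and ranged from 0 to 1 in HH and from 0 to 2 in HHC when single mice were left out. The genes called ranged from 758 to 1819, 159 to 598, 566 to 1247 and 143 to 1184 in H, HC, HH and HHC, and from 0 to 425 for the long-arm difference. The other pathway genes called ranged from 7 to 9, 0 to 1, 3 to 6 and 0 to 4.

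RLE normalization called 0 members in HH and 21 genes for the long-arm difference. DESeq2 called 2163, 727, 2309 and 1185 genes in H, HC, HH and HHC, 400 and 1215 for the short-arm and long-arm differences, 1 member in HHC and 0 other pathway genes in HC. Without the filter on low counts, 2492, 1764, 2879 and 1266 genes were called, 1403 and 1266 for the differences, 4 members in H, 1 in HHC and 1 for the long-arm difference, and 3 and 11 other pathway genes in HC and HH. When the fit held no other groups than those compared, there were 1 member in H and 0 in HH, 248 genes in HC, and 0 and 1 other pathway genes in HC and HHC. At an adjusted p under 0.05, 455, 0, 445 and 0 genes were called, no member in H or HH, and 0, 3 and 0 other pathway genes in HC, HH and HHC. Without the 5 libraries, 169, 2434 and 257 genes were called in HC, HH and HHC and 50 for the long-arm difference, with 2 members in HH and 2, 13 and 0 other pathway genes. Halved counts moved no count by more than 1.5 times. The causes of these shifts were not tested.

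No pairing by replicate number was seen, as deviations of same-numbered mice from their group means correlated at -0.17 to 0.19 in H and C, -0.28 to 0.06 in HC and CC_s, -0.19 in HH and CC_l and -0.26 in HHC and CCC. With 2 mice a group both replicates give the same value, so these few dependent values cannot exclude a pairing. With the replicate block, 0 members were called in HH, 204 and 375 genes in HC and HHC, 1 gene for the long-arm difference and 0 other pathway genes in HC. Depth limits Mogat1, Gpam and Gk most, at 60, 62 and 84 counts in their lowest libraries, and groups of 2 mice limit every long-arm value.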
